A study of Mus musculus with 36 samples.

Results

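The genes described here are 10 antioxidant enzymes of the mouse liver: the superoxide dismutases Sod1, Sod2 and Sod3, catalase (Cat), the glutathione peroxidases Gpx1 and Gpx4, and the peroxiredoxins Prdx1, Prdx3, Prdx5 and Prdx6. They were listed by name as enzyme families, not ranked by their values, although earlier results of these data were known when the list was made. All 10 were found among the 53715 genes of the count table. All 10 passed the filter on low counts, which kept 14068 genes. The study measured liver RNA of male C57BL/6 mice, with no substrain named and no genetic change, by bulk RNA sequencing. Control mice ate the purified AIN93G diet, and the other groups ate it with 10% by weight of powder from red tomatoes or from tangerine tomatoes. The mice were 4 weeks old when they were randomly placed on a diet, ate it for 6 weeks and were 10 weeks old at sampling. There were 12 libraries per diet, each from a mouse with its own number, although the labels give 11 to 12 mice per group. The comparisons ask whether either tomato powder, or the type of tomato, goes with a different level of each transcript.

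Superoxide, a by-product of respiration and of many oxidases, is converted to hydrogen peroxide by the superoxide dismutases: SOD1 in the cytosol, SOD2 in mitochondria and SOD3 outside the cell. Catalase, a haem enzyme of peroxisomes, splits hydrogen peroxide into water and oxygen. Glutathione peroxidases, of which GPX1 and GPX4 carry selenocysteine, reduce peroxides with glutathione, and GPX4 acts on lipid hydroperoxides within membranes. Peroxiredoxins reduce peroxides through a reactive cysteine and are mostly recycled by thioredoxin, whereas PRDX6 has a single such cysteine and relies on glutathione. Hepatocytes are rich in peroxisomes and mitochondria and hold high levels of most of these enzymes.

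For Gpx4 and Prdx1, the count table also holds near-identical copies of the gene, so their sequences are shown before their values. A selenocysteine is encoded by TGA, and the coding sequence of Gpx4 had 1 such in-frame codon, number 73 of 197, as did that of Gpx1, at codon 47 of 201. The other 8 coding sequences had none. The processed pseudogene Gpx4-ps2 differed from Gpx4 at 2 of 552 aligned bases, with an identical run of 314 bases. Over the stretch around the selenocysteine codon (capitals in Gpx4), the pseudogene differed at 1 base (capital in Gpx4-ps2). Both stretches are on the plus strand of GRCm38, at chr10:80054700-80054809 for Gpx4 and chr10:45875431-45875540 for Gpx4-ps2.
Gpx4: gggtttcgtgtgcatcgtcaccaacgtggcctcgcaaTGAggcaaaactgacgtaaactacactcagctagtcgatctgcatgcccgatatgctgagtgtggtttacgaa
Gpx4-ps2: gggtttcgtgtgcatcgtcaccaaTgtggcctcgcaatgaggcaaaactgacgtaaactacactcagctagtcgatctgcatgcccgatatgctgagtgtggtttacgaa

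Prdx1 has 2 processed pseudogenes with counts, Gm21399 and Gm7204. They differed from its coding sequence at 10 and 15 of 597 bases, and their longest identical runs were 102 and 115 bases. The stretches that hold the codon of the peroxide-reactive cysteine (TGT, capitals in Prdx1) are shown with the bases that differ from Prdx1 in capitals in the copies, 3 in Gm21399 and 7 in Gm7204. All are on the plus strand of GRCm38, at chr4:116691776-116691895 for Prdx1, chr8:129253104-129253223 for Gm21399 and chr16:48218711-48218830 for Gm7204.
Prdx1: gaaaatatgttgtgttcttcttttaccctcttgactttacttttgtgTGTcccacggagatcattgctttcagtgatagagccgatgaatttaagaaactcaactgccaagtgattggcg
Gm21399: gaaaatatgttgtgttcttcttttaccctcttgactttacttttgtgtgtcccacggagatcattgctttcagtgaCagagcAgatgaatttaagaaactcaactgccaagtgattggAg
Gm7204: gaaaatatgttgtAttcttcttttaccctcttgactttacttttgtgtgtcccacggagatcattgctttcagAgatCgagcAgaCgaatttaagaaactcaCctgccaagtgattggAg

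In the count table, the pseudogene held most of the counts of the Gpx4 pair. Gpx4-ps2 had a median of 4339.5 counts per library, from 3397 to 6006. Gpx4 itself held 9.37% to 14.4% of the pair's counts in control livers, 8.24% to 14.4% on the red tomato diet and 11.2% to 15.2% on the tangerine diet. Prdx1 held 59.7% to 64.2% of the counts of its family across the 36 livers, against a median of 6362.5 counts for Gm21399 and 1776 for Gm7204. The shares of the 3 diets overlapped for both genes. A read that falls in an identical run cannot be assigned to the gene or its copy by its sequence, and how the authors' counting treated such reads is not given in the sources used here. The deposited levels of Gpx4, and to a lesser degree of Prdx1, are therefore uncertain, and they are given below also with the copies added. Other copies with at least 90% identity over 80% of a coding sequence that are in the count table had few or no counts. Gm8566, a copy of Sod1, and Gm15974, a copy of Prdx1, had 0 counts in every library, and Prdx6b, a copy of Prdx6, had a median of 5. A further copy of Gpx4, AC122253.3 (95.1% identity over 89.8% of the coding sequence), was not found in the count table and is in none of these sums.

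**Figure D1:**
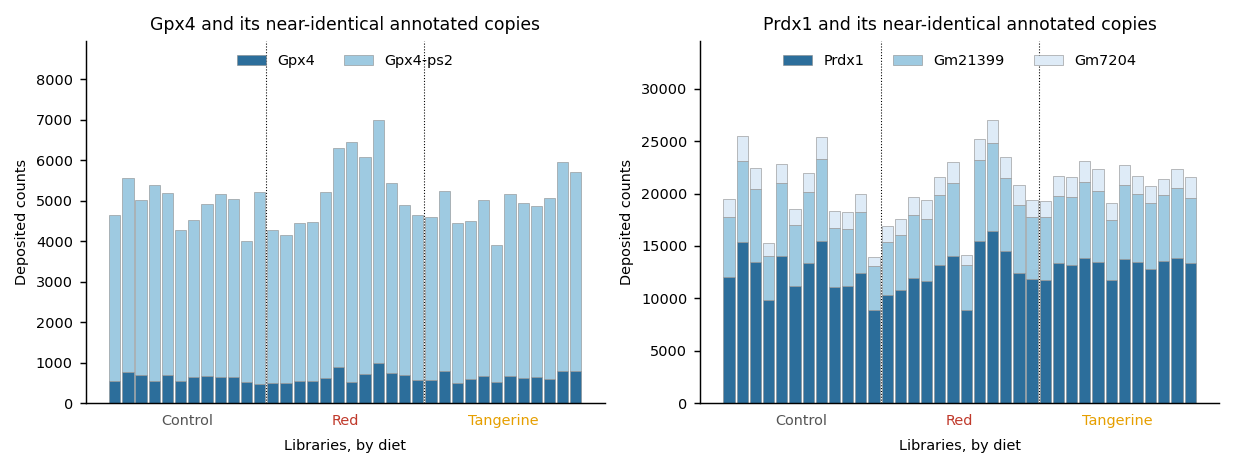
Deposited counts of Gpx4 with Gpx4-ps2 (left) and of Prdx1 with Gm21399 and Gm7204 (right), as 1 stacked bar per library, 12 per diet. In every library the larger part of the Gpx4 bar belongs to the pseudogene and the larger part of the Prdx1 bar to the gene itself.

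The libraries held 21290169 to 33810573 counts assigned to genes. Summed markers of hepatocytes (6 genes, all detected in every library) made up 83630 to 124800 CPM, the counts per library scaled to a common total. One control library (mouse 137) had the lowest sums of the 6 Kupffer cell markers (69.25 CPM, others from 99.84) and of the 6 sinusoidal endothelial markers (57.74 CPM, others from 87.1) among all 36. It also stood apart in its length slope, the slope of its log2 CPM, relative to the mean of all libraries, on log2 exon length: −0.174, against −0.0746 to 0.0708 in the other 35 libraries. The red library of mouse 186 held T cell transcripts (6 markers, 162.3 CPM, others up to 4.672), and the tangerine library of mouse 216 held pancreatic transcripts (9 markers, 11.76 CPM). Of the T cell markers, 3 of 4 tested were called lower for tangerine against red with mouse 186 included, and the hepatocyte marker Cps1 was called higher (log2 fold change 0.40, adjusted p = 0.0446, edgeR). No Kupffer, endothelial, stellate or B cell marker was called in any pair of diets; Lrat, Ms4a1, Alas2 and Cela2a, defining markers of stellate, B, erythroid and acinar cells, are listed at 0 throughout. A score of 10 circadian clock genes, their first principal component, averaged 0.70 ± 2.47 in control, −2.29 ± 2.03 in red and 1.59 ± 1.94 in tangerine livers (SD, n = 12 each); the labels give no time of sampling.

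The levels of the 10 transcripts spanned a wide range. Catalase stood far above the others, at 1340 ± 95.1 CPM per kilobase of merged exons over all 36 livers (SD), followed by Gpx1 at 720 ± 121. The 36 values of these genes did not overlap, with 1120 as the lowest for Cat and 1110 as the highest for Gpx1. Prdx1 (154 ± 15), Sod1 (124 ± 16.3) and Prdx6 (102 ± 10.1) followed, then Prdx5 (73.7 ± 8.93) and Prdx3 (61.8 ± 6.11), on the same scale of CPM per kilobase. Neighbours in this middle group overlapped in their ranges over the livers. Sod2 (14.7 ± 1.32) and Gpx4 (13.7 ± 1.79) overlapped, and the extracellular Sod3 was lowest at 5.93 ± 1.20, with its highest liver (10.2) below the lowest for Gpx4 (10.6). The choice of length changed both the order and these separations. Over the principal transcripts, Gpx1 stood at 968 ± 163 CPM per kilobase with a highest liver at 1500, above the lowest for Cat (1120), so these genes overlapped on that scale. The merged exons of Sod1 span 3970 bases and its principal transcript 641, and over the latter Sod1 had 767 ± 101 CPM per kilobase, at rank 3 of the 10. With the copies' counts added, on that transcript scale, Gpx4 moved from rank 9 to rank 6, at 194 ± 24.9 CPM per kilobase, and Prdx1 stood at 332 ± 33.1.

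None of the 10 genes passed an adjusted p of 0.05 in any comparison between diets. In edgeR's quasi-likelihood test with Benjamini-Hochberg adjustment over all 14068 genes, 0 of 10 were called for red against control, where 0.149% of all genes were called. For tangerine against control it was 0 of 10 beside 0.0142%, for tangerine against red 0 of 10 beside 1.71%, and for both tomato diets against control 0 of 10 beside 0.00711%. A test of any difference among the 3 diets called 0 of 10, beside 1.18%. DESeq2's Wald test called 0, 0, 1, 0 and 0 of the 10 in these comparisons, in that order, beside 1.37%, 0.0498%, 3.39%, 0.124% and 2.94% of the genes to which it gave an adjusted p. Limma-voom called 1, 0, 1, 0 and 0, beside 10.5%, 0.0142%, 5.2%, 0.242% and 7.9% of all genes. At an unadjusted p under 0.05, edgeR had 1 of the 10 for red against control (Sod2, lower; 13.3% of all genes, 6.63% lower), 0 for tangerine against control (5.47%), 4 for tangerine against red (15.1%), 0 for both tomato diets (6.77%) and 3 for any difference (13.9%). The 4 genes in the comparison of the tomato diets were Sod2, Prdx1, Prdx3 and Prdx6, and all 4 were higher on the tangerine diet, beside 6.6% of all genes that were higher at this p. The red and tangerine comparisons with control share the control livers and are not independent of each other.

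The median log2 fold change of the 10 genes was −0.024 for red against control, with 3 above 0 and 7 below, beside −0.0047 over all genes tested. It was 0.030 for tangerine against control (7 above 0 and 3 below, beside −0.012) and 0.087 for tangerine against red (8 above and 2 below, beside −0.0045). For both tomato diets together it was −0.0027. The largest difference among the 10 in any of these comparisons was 0.18 on the log2 scale, a change of 1.135-fold. The 95% intervals of catalase, the most precisely measured, ran from −0.052 to 0.148 for red against control, from −0.056 to 0.145 for tangerine against control and from −0.104 to 0.096 for tangerine against red.

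**Figure D2:**
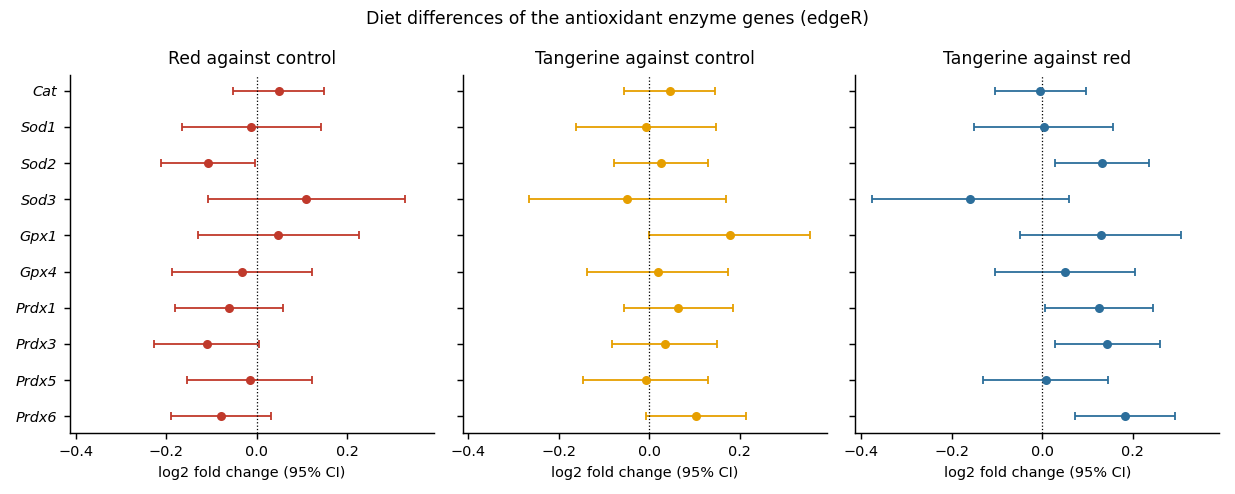
Log2 fold changes of the 10 genes (points) with their 95% confidence intervals (bars) from edgeR, for red against control, tangerine against control and tangerine against red. Most intervals cross 0, and in the right panel those of Sod2, Prdx1, Prdx3 and Prdx6 lie above 0 before adjustment for the number of genes tested.

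Sod2, the mitochondrial manganese dismutase (ENSMUSG00000006818, chr17:13006846-13040063, plus strand), was lower in livers of the red tomato diet than in the other groups before adjustment. It had 130 to 164 CPM in control livers with a median of 153, 125 to 160 with a median of 134.5 in red livers, and 131 to 172 with a median of 153 in tangerine livers. Only 1 of 12 red livers exceeded the control median, yet the ranges overlapped in every pair of diets. The log2 fold change was −0.11 (SE 0.0513, p = 0.0446, adjusted p = 0.363, edgeR) for red against control and 0.13 (SE 0.0513, p = 0.0137, adjusted p = 0.193) for tangerine against red. For tangerine against control it was 0.026 (95% interval −0.078 to 0.130). With the clock score as a covariate, the difference of the tomato diets was 0.082 (SE 0.0640, adjusted p = 0.613). Without the libraries of red mouse 186 and tangerine mouse 216 it was 0.12 (SE 0.0535, adjusted p = 0.341).

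Sod1, the cytosolic copper-zinc dismutase (ENSMUSG00000022982, chr16:90220754-90226329, plus strand), had nearly the same mean on each diet. Its means were 494 ± 89.2 CPM in control, 490 ± 46.1 in red and 491 ± 57.1 in tangerine livers (SD, n = 12). The medians were 491, 512 and 489 CPM, in ranges of 390 to 743, 403 to 538 and 419 to 602. The value of 743 came from the control library of mouse 137, and the other control livers reached at most 524. With that library the log2 fold change was −0.012 (SE 0.0762) for red and −0.0085 (SE 0.0762) for tangerine against control. Without it, these turned to 0.056 (SE 0.0634, adjusted p = 0.717) and 0.059 (SE 0.0634, adjusted p = 0.902). Sod1 overlaps Scaf4 on the opposite strand; the library kit marks strand, but whether the counting used it is not given in the sources used here.

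Sod3, the dismutase secreted to the cell surface and matrix (ENSMUSG00000072941, chr5:52363791-52371418, plus strand), was the least abundant and most variable of the 10. Sod3 had 15.8 to 38.1 CPM in control livers with a median of 20.1, 19.2 to 31.9 with a median of 23.3 in red livers, and 17.2 to 24.0 with a median of 21.6 in tangerine livers. The highest value was again that of control mouse 137, and the other control livers reached 27.7. The log2 fold change for red against control was 0.11 (SE 0.107, adjusted p = 0.696, edgeR), and 0.21 (SE 0.0901, adjusted p = 0.260) without that library. limma-voom with sample weights, which give outlying libraries less influence, put it at 0.26 (SE 0.082, adjusted p = 0.0387), in a comparison in which it called 10.5% of all genes. For tangerine against control the value was −0.049 (SE 0.107), turning to 0.050 (SE 0.0902) without mouse 137, and for tangerine against red it was −0.16 (SE 0.107, adjusted p = 0.5), with 4 of 12 tangerine livers below the lowest red one.

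Catalase (ENSMUSG00000027187, chr2:103453849-103485160, minus strand) did not differ between diets beyond the spread of the livers. It had 2926 to 3758 CPM in control livers with a median of 3478, 3054 to 3969 with a median of 3512 in red livers, and 3071 to 3842 with a median of 3568 in tangerine livers. The ranges lay almost on top of each other, with 3 red and 3 tangerine livers above the highest control. In log2 fold change this was 0.048 for red (SE 0.0494, adjusted p = 0.710, edgeR) and 0.045 for tangerine against control (SE 0.0494, adjusted p = 1).

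**Figure D3:**
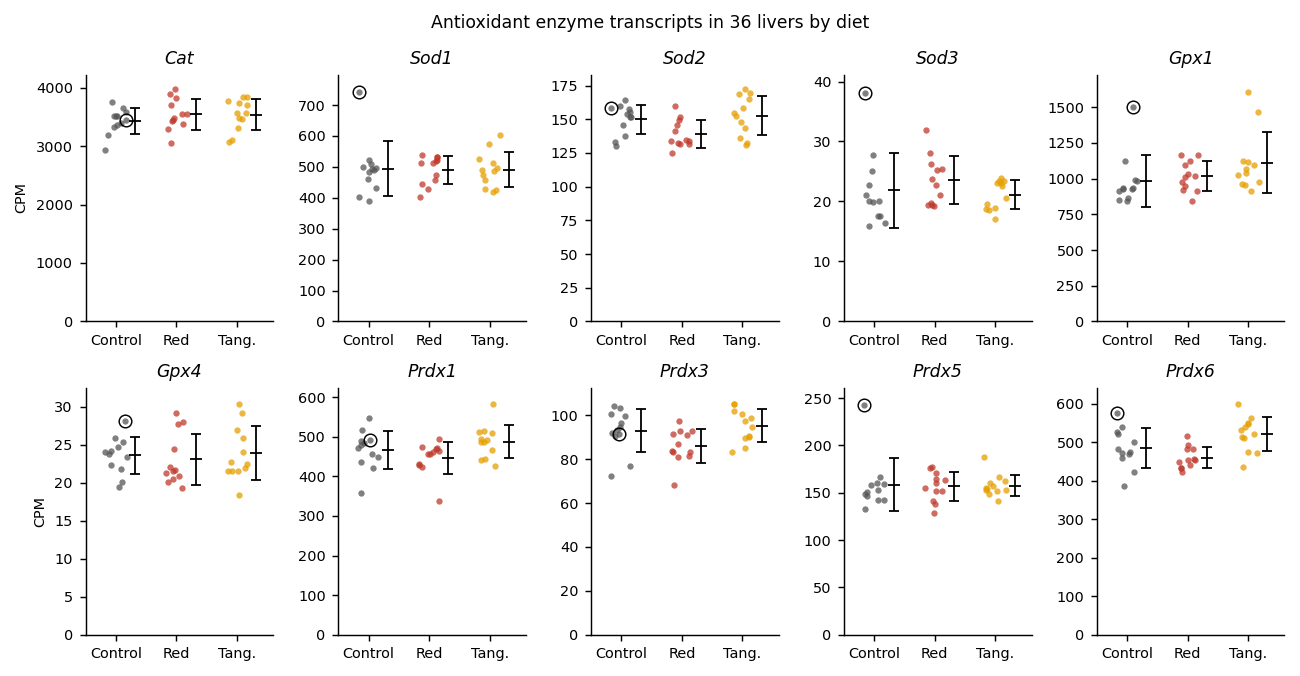
CPM of each of the 10 genes in every liver (points, 12 per diet), with the mean and SD beside each group, on axes that start at 0; control mouse 137 is circled. The groups overlap in every panel, and the circled liver is the highest control in 6 panels (Sod1, Sod3, Gpx1, Gpx4, Prdx5 and Prdx6).

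Gpx1, the abundant cytosolic and mitochondrial glutathione peroxidase (ENSMUSG00000063856, chr9:108338903-108340343, plus strand), had its highest median on the tangerine diet. It had 846 to 1502 CPM in control livers with a median of 933, 841 to 1168 with a median of 1013 in red livers, and 912 to 1606 with a median of 1054 in tangerine livers. Of the 12 tangerine livers, 11 exceeded the control median, although 11 also lay below the highest control, that of mouse 137. Tangerine livers differed from control by 0.18 on the log2 scale (SE 0.0881, p = 0.0519, adjusted p = 0.920, edgeR). Without mouse 137 it was 0.25 (SE 0.0774, p = 0.00285), and the adjusted p was still 0.457. The tangerine livers of mice 225 and 226 had 1606 and 1467 CPM, and the next tangerine liver had 1124. They were not left out together. Leaving out each library in turn moved the log2 fold change for tangerine against control between 0.12, without tangerine mouse 225, and 0.25, without control mouse 137. Without that library and the tangerine libraries of mice 225 and 242, which are named below, no gene of the 10 was called either. For red against control the value was 0.048 (SE 0.0881, adjusted p = 0.857).

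Gpx4, the lipid hydroperoxide peroxidase (ENSMUSG00000075706, chr10:80047166-80056439, plus strand), had 19.5 to 28.1 CPM in control livers with a median of 23.9, 19.3 to 29.2 with a median of 21.6 in red livers, and 18.4 to 30.4 with a median of 22.6 in tangerine livers. These ranges nearly coincided. Differences on the log2 scale were −0.032 for red against control (SE 0.0766, adjusted p = 0.893), 0.018 for tangerine against control (SE 0.0767, adjusted p = 1) and 0.050 for tangerine against red (SE 0.0766, adjusted p = 0.809, edgeR). The counts of Gpx4-ps2, whose sequence is shown above, changed the sign for tangerine against control and against red, but not for red against control. With them added, tangerine against red was −0.035 (SE 0.0727, adjusted p = 0.867). Whether either count measures Gpx4 messenger RNA alone cannot be read from the table.

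Prdx6, the peroxiredoxin that reduces phospholipid hydroperoxides (ENSMUSG00000026701, chr1:161240112-161251219, minus strand), showed the largest difference of the 10, between the tomato diets. It had 387 to 576 CPM in control livers with a median of 478, 423 to 517 with a median of 453 in red livers, and 436 to 600 with a median of 527 in tangerine livers. Of the 12 tangerine livers, 11 exceeded the red median and 7 exceeded the highest red liver. The log2 fold change for tangerine against red was 0.18 (SE 0.0546, 95% interval 0.072 to 0.293), with p = 0.00192 and an adjusted p of 0.0757 (edgeR), just above the threshold. Against control, red livers differed by −0.079 (SE 0.0546, adjusted p = 0.560) and tangerine livers by 0.10 (SE 0.0546, adjusted p = 0.934), so control livers lay between the tomato diets.

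The call for Prdx6 depended on the test. DESeq2's Wald test gave an adjusted p of 0.0244 for tangerine against red (log2 fold change 0.185), limma-voom 0.0471 (0.16), edgeR on the 24 livers of the compared diets alone 0.0430, and edgeR with the length slope as a covariate 0.0481 (0.17). These settings called 3.39%, 5.2%, 2.42% and 4.34% of the genes tested, in that order, where the test above called 1.71%. Leaving out each library in turn moved the log2 fold change between 0.16 and 0.20 and the adjusted p between 0.037 and 0.138, and without tangerine mouse 192 it passed the threshold, as did 1.84% of genes. That library had the highest sum of the 6 cholangiocyte markers, at 111.2 CPM. The median of its diet was 20.84 CPM, and the other 35 libraries reached at most 49.51 CPM. Of these markers, Spp1 had its highest count there (2917, beside a median of 440 over the 36 libraries). Each of the others was highest in red mouse 186 or 199, so the sum is not read as more cholangiocytes. The part of Spp1 or of these cells in the result was not tested. With the clock score as a covariate the difference was 0.13 (SE 0.0686, adjusted p = 0.437), and without the libraries of mice 186 and 216 it was 0.16 (SE 0.0575, adjusted p = 0.181).

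Prdx3, the mitochondrial peroxiredoxin (ENSMUSG00000024997, chr19:60864051-60874556, minus strand), also had its lowest median in livers of the red tomato diet. It had 72.4 to 104 CPM in control livers with a median of 94.0, 68.4 to 97.5 with a median of 85.2 in red livers, and 83.0 to 105 with a median of 95.9 in tangerine livers. A single red liver exceeded the control median, and 10 of 12 tangerine livers exceeded the red median. The log2 fold change was −0.11 for red against control (SE 0.0570, p = 0.0601, adjusted p = 0.402, edgeR) and 0.14 for tangerine against red (SE 0.0570, p = 0.0159, adjusted p = 0.205). With the clock score as a covariate these were larger, at −0.19 (SE 0.0616, adjusted p = 0.321) and 0.24 (SE 0.0667, adjusted p = 0.188). Without mice 186 and 216, the tomato diets differed by 0.17 (SE 0.0594, adjusted p = 0.183).

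Prdx1, the abundant cytosolic peroxiredoxin (ENSMUSG00000028691, chr4:116685544-116700822, plus strand), had 357 to 548 CPM in control livers with a median of 475, 336 to 494 with a median of 459 in red livers, and 426 to 581 with a median of 489 in tangerine livers. The low end of the red group was 1 liver, and 9 of 12 tangerine livers exceeded the red median. Between the tomato diets, Prdx1 differed by 0.13 on the log2 scale (SE 0.0591, p = 0.0407, adjusted p = 0.304, edgeR). With the counts of Gm21399 and Gm7204 added it was 0.12 (SE 0.0619, adjusted p = 0.367). Adding the clock score to the model gave 0.23 (SE 0.0695, adjusted p = 0.215), and leaving out mice 186 and 216 gave 0.13 (SE 0.063, adjusted p = 0.375). The pseudogenes' own counts differed by 0.10 for Gm21399 (SE 0.0630, adjusted p = 0.448) and 0.11 for Gm7204 (SE 0.0908, adjusted p = 0.609).

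Prdx5, found in mitochondria, peroxisomes and the cytosol (ENSMUSG00000024953, chr19:6906697-6910106, minus strand), had 132 to 243 CPM in control livers with a median of 152, 128 to 178 with a median of 157.5 in red livers, and 142 to 188 with a median of 154.5 in tangerine livers. The medians were close, and the value of 243 was that of control mouse 137, with the next control liver at 166. The log2 fold changes were −0.016 for red (SE 0.0682, adjusted p = 0.948) and −0.0080 for tangerine against control (SE 0.0683, adjusted p = 1, edgeR). Without mouse 137 both turned positive, to 0.055 (SE 0.0508) and 0.063 (SE 0.0509), and neither passed the test. Prdx5 overlaps Trmt112 on the opposite strand, so the same limit on strand applies as for Sod1.

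Control mouse 137 was the highest control for 6 of the 10 genes, and the highest of all 36 livers for 3. Without it, the control mean fell from 494 to 471 ± 44.5 CPM for Sod1, from 984 to 937 ± 79.4 for Gpx1 and from 158.5 to 151 ± 9.86 for Prdx5 (SD, n = 11). The spread of Prdx5 among control livers was 17.7% of its mean with this library and 6.53% without it. For catalase, Sod2, Prdx1 and Prdx3 the same liver lay within the range of the others. The tangerine libraries of mice 225 and 242 were each the highest of their diet for 3 of the 10 genes. Their endothelial marker sums were 87.1 and 118.8 CPM, beside a median of 160.2 for their diet. The red library of mouse 186 was the lowest of its diet for 5. In bulk tissue, fewer cells of a type and less RNA per cell cannot be told apart.

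The length slope of a library moved with the level of some of the 10 transcripts and not with others. Over the 36 livers, with diet means removed, Pearson's r with the length slope was −0.851 for Sod1 and −0.846 for Prdx5 (Spearman's rho −0.763 and −0.738, permutation p = 1e-05 each, the smallest the resamples can give, adjusted p = 5e-05 over 10 relations). It was −0.649 for Sod3 (rho −0.485, adjusted p = 0.00023), −0.557 for Gpx1 (rho −0.415, adjusted p = 0.00237) and −0.468 for Gpx4 (rho −0.449, adjusted p = 0.00678), all by permutation. Libraries in which shorter transcripts took a larger share thus also had more of these 5. The share of all tested genes that passes this test was not computed. Passing for 5 of 10 is therefore not read as a trait of these enzymes. The relation did not pass for catalase (r = 0.0717), Sod2 (0.28), Prdx1 (−0.285), Prdx3 (−0.00715) or Prdx6 (−0.349), although by rank it did for Sod2 (rho 0.409, adjusted p = 0.0196) and Prdx1 (rho −0.432, adjusted p = 0.0182). Without the 2 libraries farthest from the median slope, control mouse 137 and red mouse 170, r was −0.765 for Sod1, −0.723 for Prdx5, −0.433 for Sod3, −0.338 for Gpx1 and −0.415 for Gpx4. For the other 5 it was 0.165 for catalase, 0.443 for Sod2, −0.309 for Prdx1, −0.0525 for Prdx3 and −0.149 for Prdx6. The 10 genes were left out when the slope was computed, from 7843 genes whose log2 CPM averaged 3 or more. The part of RNA quality, library preparation or cell content in the slope was not tested.

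**Figure D4:**
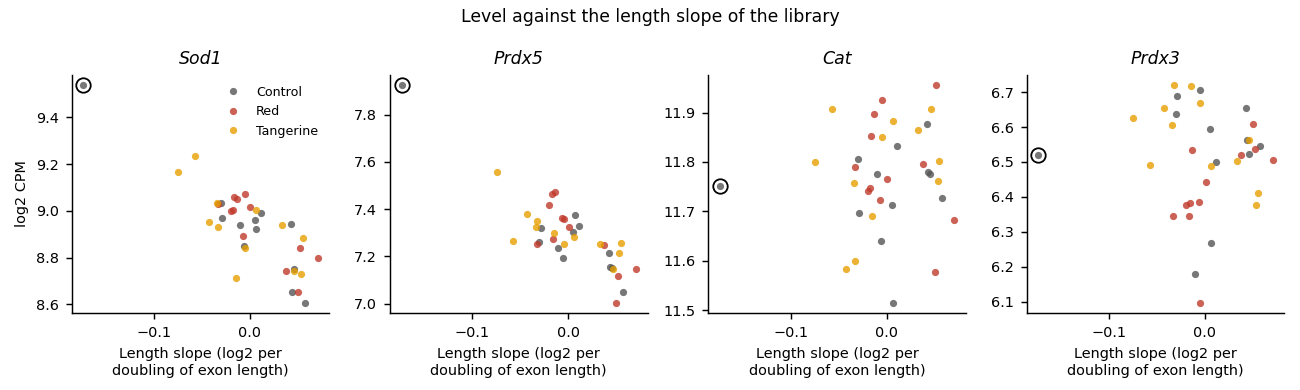
Log2 CPM of Sod1, Prdx5, Cat and Prdx3 in each of the 36 livers (points, coloured by diet) against the length slope of its library; control mouse 137 is circled. Sod1 and Prdx5 fall as the slope rises, also among the 35 livers to the right, while Cat and Prdx3 show no such trend.

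The 10 genes differed in how much they varied between livers of the same diet. Catalase had an SD of 0.105 on the log2 scale within diets, at the 3.56th percentile of all tested genes, whose median was 0.243. Sod2 (0.119), Prdx6 (0.126), Prdx3 (0.138) and Prdx1 (0.141) followed, at percentiles from 6.93 to 14.5. Prdx5 (0.162), Sod1 (0.184), Gpx4 (0.189) and Gpx1 (0.212) were intermediate. Sod3 was the only one above the median of all genes, at 0.266 and the 56.2th percentile. In control livers the SD of Sod3 was 28.4% of its mean with mouse 137 and 18% without that library. It was 17% in red livers and 11.4% in tangerine livers, where Gpx1 had 19% and Gpx4 14.8%. Abundant transcripts vary less from counting alone. Among the 500 genes nearest in level, catalase stood at the 5.59th percentile and Sod3 at the 79.8th.

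Within diets, several of the genes rose and fell together from liver to liver. Of the 45 pairs, 16 had an adjusted permutation p under 0.05 by Pearson's r, all positive, and 14 by Spearman's rho. Both were taken over 36 livers with diet means removed, for Gpx4 and Prdx1 on their own counts without the copies. What share of pairs of other tested genes passes in these libraries was not computed. The number of passing pairs is therefore not read as a trait of these enzymes. The closest pair was Sod1 with Prdx5 (r = 0.816, rho = 0.696, adjusted p = 0.00015), at r = 0.662 without the 2 livers farthest in Sod1. Sod1 also went with Gpx1 (r = 0.701, rho = 0.592, adjusted p = 0.00015; 0.555 without the 2 farthest) and with Gpx4 (r = 0.612, rho = 0.606, adjusted p = 0.00056; 0.573). Sod3 went with Prdx5 (r = 0.66, rho = 0.524, adjusted p = 0.00063). Catalase went with Sod2 (r = 0.605, rho = 0.562, adjusted p = 0.0009; 0.618), and both also passed with Prdx6 (r = 0.421 and 0.502, adjusted p = 0.0308 and 0.00687). Prdx1 went with Prdx3 (r = 0.693, rho = 0.453, adjusted p = 0.00015), but r was 0.459 without control mouse 245 and red mouse 177, where both genes were low. Prdx1 also passed with Gpx4 (r = 0.446, adjusted p = 0.0193). The most negative value was that of Sod2 with Sod3 (r = −0.364, rho = −0.462), with an adjusted p of 0.0696 for r and 0.0199 for rho.

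Sod1 passed the test with Sod3, Gpx1, Gpx4, Prdx5 and Prdx6, and all of these but Prdx6 had also moved with the length slope. With the length slope removed from the levels, 13 of the 45 pairs had an adjusted p under 0.05. Sod1 with Prdx5 was then at r = 0.343 (adjusted p = 0.102), Sod3 with Prdx5 at 0.274 (adjusted p = 0.206) and Sod1 with Sod3 at −0.034 (adjusted p = 0.954), so none of these passed. Catalase with Sod2 (0.611), Prdx1 with Prdx3 (0.72), Sod1 with Gpx1 (0.521) and Sod1 with Gpx4 (0.46) passed there too. Catalase with Sod1 (0.551, adjusted p = 0.00442) and Sod1 with Sod2 (0.507, adjusted p = 0.00832), which had not passed before, now did. Sod3 with Prdx1 passed as a negative relation (−0.669, adjusted p = 0.0003). Without control mouse 137, 13 pairs passed, of which Sod2 with Sod3 (−0.542, adjusted p = 0.0057) and Sod3 with Prdx1 (−0.447, adjusted p = 0.0284) were negative. The absence of negative pairs above thus held only for Pearson's r, with that liver and without the correction. By Spearman's rho, Sod2 with Sod3 had passed as negative with all 36 livers. Sod1 with Sod3 was at 0.295 (adjusted p = 0.178) without that liver. All of these genes were measured in the same libraries, so a property of a library that moves 1 of them can move others.

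**Figure D5:**
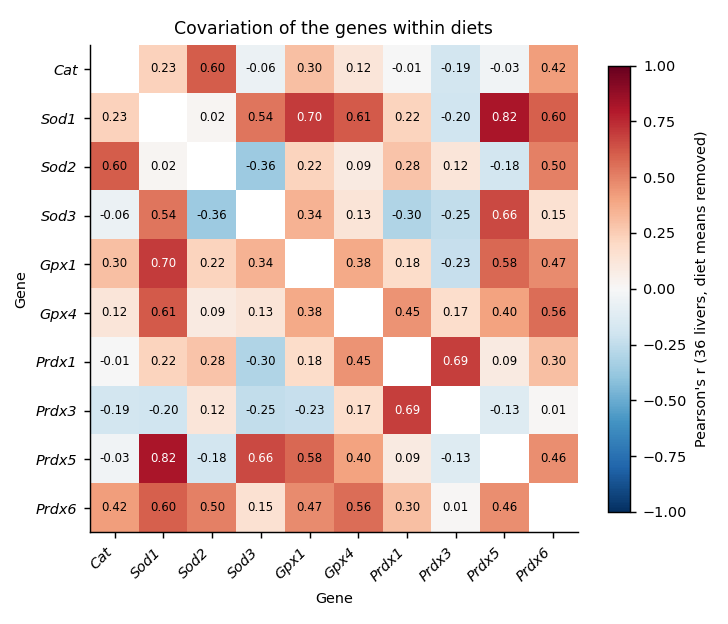
Pearson's r of log2 CPM between each pair of the 10 genes over 36 livers with diet means removed, as a coloured matrix from −1 (blue) to 1 (red) with the value in each cell. The 4 highest values are those of Sod1 with Prdx5 (0.816), Sod1 with Gpx1 (0.701), Prdx1 with Prdx3 (0.693) and Sod3 with Prdx5 (0.66).

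The clock score, which differed between the diets, was also compared with each gene within diets. Prdx1 (r = −0.431, rho = −0.315) and Prdx3 (r = −0.433, rho = −0.35) had an adjusted permutation p of 0.0427 each over the 10 relations by Pearson's r, and 0.21 each by Spearman's rho. Without the 2 libraries farthest in the score, r was −0.402 and −0.384. The other 8 genes had r between −0.202 and 0.23, and none passed. How many of all tested genes pass against the clock score was not computed. The labels do not say at what hour the livers were taken, and the clock and the diet cannot be told apart where they moved together.

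The genes whose levels were most like those of each enzyme were found by Spearman's rho of within-diet log2 CPM over the 36 livers, among all tested genes outside the 10. These are descriptions over the same libraries, with no test. For catalase they were Gm9826 (0.749), Cdo1, a cysteine dioxygenase (0.744), and Il1rap (0.744). Sod2 was closest to Pgrmc1, a haem-binding membrane protein (0.865), Cyp3a13, a cytochrome P450 (0.856), and Adi1 (0.85). Sod1 was closest to Esd (0.876), Sdf4 (0.875) and Vti1b (0.855), and Prdx5 to Polr2f, an RNA polymerase subunit (0.848), Fam221b (0.839) and Mecr, an enzyme of mitochondrial fatty acid synthesis (0.837). The nearest genes to Sod3 were Ecm1, an extracellular matrix protein (0.853), Plvap, an endothelial protein (0.78), and Bgn, the matrix proteoglycan biglycan (0.762). Gpx1 was closest to Bsg (0.742), Fam213b (0.731) and Ndufa1, a subunit of respiratory complex I (0.719). Gpx4, by its own counts without those of Gpx4-ps2, was closest to Gm25911 (0.751), Zfp185 (0.746) and Slc22a27 (0.741). The nearest gene to Prdx1 was its own copy Gm21399 (0.804), whose counts may share reads with it, followed by the proteasome subunit Psma6 (0.797) and Cox6c2 (0.751). Prdx3 was closest to Txnl1, a thioredoxin-like protein (0.823), Ibtk (0.804) and the proteasome subunit Psmd14 (0.784), and Prdx6 to Tmbim6 (0.807), D10Jhu81e (0.779) and the mitochondrial hydratase Echs1 (0.769).

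The surrounding pathway was described with 7 lists of genes that supply, recycle, make or sense the same oxidants. Across their 62 tested genes, 1 was called for red against control (beside 0.149% of all genes), 0 for tangerine against control (0.0142%), 4 for tangerine against red (1.71%) and 0 for both tomato diets against control (0.00711%), by edgeR at an adjusted p under 0.05. DESeq2 and limma-voom called 2 and 7 of the 62 for red against control, beside 1.37% and 10.5% of all genes, and 0 each for tangerine and for both tomato diets against control. At an unadjusted p under 0.05, the tangerine against control comparison had 1 of 10 tested genes of glutathione synthesis and recycling, 2 of 8 of selenium and selenoprotein synthesis, 2 of 8 regulators and 0 in the other 4 lists, beside 5.47% of all genes. For both tomato diets against control, these lists had 3, 2 and 1, with 1 of 10 peroxide sources, beside 6.77%. Red against control had 4, 2 and 2 in those 3 lists, with 1 each of the sources, the thioredoxin system and NADPH supply and 0 of the other family members, beside 13.3%. Tangerine against red had 4, 3 and 3, with 2 each of the sources, the thioredoxin system and NADPH supply and 1 other family member, beside 15.1%.

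Among 10 tested genes that make hydrogen peroxide or superoxide, urate oxidase (Uox), a peroxisomal enzyme that releases hydrogen peroxide, fell on the red diet. It had 1784 ± 156 CPM in control, 1391 ± 121 in red and 1778 ± 258 in tangerine livers (SD, n = 12). On the log2 scale, Uox stood at −0.36 (SE 0.0685, adjusted p = 0.0156, edgeR) for red against control and 0.35 (SE 0.0685, adjusted p = 0.00785) for tangerine against red. Uox passed in both comparisons when each library was left out in turn, with log2 fold changes from −0.38 to −0.34 and from 0.32 to 0.40. No other gene of this list was called. Acox2, which acts on branched substrates, stood at −0.19 for tangerine against red (SE 0.0687, adjusted p = 0.154). Hao1 and Nox4 had the smallest p for tangerine against control (log2 fold changes 0.074 and 0.12, adjusted p = 1 each), and Maob was second to Uox for both tomato diets (log2 fold change −0.092, adjusted p = 0.810). With the clock score as a covariate, no gene of the 7 lists was called in either comparison. Uox then stood at −0.31 (SE 0.0781, adjusted p = 0.204) and 0.29 (SE 0.0853, adjusted p = 0.212). The share of all genes called in that model is not given here, so the lost calls are not read as a result about these genes.

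Of 10 tested genes of glutathione synthesis and recycling, Gclc, the catalytic subunit of the rate-limiting ligase, was lower on the tangerine than on the red diet. Its means were 280 ± 58.3 CPM in control, 370 ± 60.4 in red and 274 ± 62.8 in tangerine livers, with a log2 fold change of −0.43 (SE 0.113, adjusted p = 0.0359, edgeR). The call ended without tangerine mouse 216 (−0.42, SE 0.117, adjusted p = 0.0751), without mice 186 and 216 (−0.42, adjusted p = 0.0948) and in a model that included the clock score (−0.13, SE 0.12, adjusted p = 0.689). The same call also ended in edgeR without the low-count filter (adjusted p = 0.0621) and with mouse number as a covariate (adjusted p = 0.0952). Of the 36 libraries left out in turn, 12 ended it, with values from −0.49 to −0.39. For red against control, Gclc stood at 0.40 (SE 0.113, adjusted p = 0.0978) and its modifier subunit Gclm at 0.27 (SE 0.0829, adjusted p = 0.132). Gclm stood at 0.11 for tangerine against control (adjusted p = 1) and at 0.19 for both tomato diets (adjusted p = 0.604). Ggct, which cleaves glutamyl peptides, stood at −0.32 for tangerine against red (adjusted p = 0.147) and −0.25 for tangerine against control (adjusted p = 0.870). The glutaredoxin Glrx stood at −0.12 for both tomato diets (adjusted p = 0.695).

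Among 8 tested genes of the list of selenium and selenoprotein genes, 1 was higher and 1 lower on the tangerine than on the red diet. Sephs2, which makes the selenium donor selenophosphate, had 578 ± 47.2 CPM in control, 532 ± 54.8 in red and 620 ± 43.0 in tangerine livers, with a log2 fold change of 0.22 (SE 0.0543, adjusted p = 0.0260, edgeR). Secisbp2, which binds the selenocysteine insertion element, had 16.4 ± 2.03, 17.4 ± 1.55 and 14.9 ± 1.13 CPM, and a log2 fold change of −0.23 (SE 0.0600, adjusted p = 0.0393). Both calls ended without tangerine mouse 216 (Sephs2 at 0.22, adjusted p = 0.0597; Secisbp2 at −0.22, adjusted p = 0.0789) and without both mice 186 and 216 (adjusted p = 0.0547 and 0.08). They also ended in edgeR without the low-count filter (adjusted p = 0.056 and 0.101) and with mouse number as a covariate (adjusted p = 0.0528 and 0.0945). Of the 36 libraries left out in turn, 4 ended the call of Sephs2, with values from 0.20 to 0.24, and 13 that of Secisbp2, with values from −0.25 to −0.21. With the clock score as a covariate, Sephs2 stood at 0.27 (adjusted p = 0.165) and Secisbp2 at −0.26 (adjusted p = 0.212). For red against control, Scly stood at 0.25 (adjusted p = 0.314) and Sephs2 at −0.12 (adjusted p = 0.338). For tangerine against control, Secisbp2 stood at −0.14 (adjusted p = 0.819) and Selenbp2 at 0.63 (adjusted p = 0.847); Scly and Selenbp2 had the smallest p for both tomato diets (log2 fold changes 0.23 and 0.61, adjusted p = 0.677 and 0.683).

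No gene was called in the 4 remaining lists. Of the thioredoxin system, which recycles most peroxiredoxins, 6 of 10 tested genes were above 0 for tangerine against red, with a median of 0.064. Sesn1, a sestrin, stood at 0.25 (adjusted p = 0.107) and the reductase Txnrd3 at 0.12 (adjusted p = 0.267). For red against control, Txnrd3 and the mitochondrial thioredoxin Txn2 both stood at −0.12 (adjusted p = 0.319 and 0.397). For tangerine against control, Sesn1 stood at 0.15 and Txnrd1 at 0.060 (adjusted p = 0.936 and 0.995), and for both tomato diets Txnrd1 stood at 0.065 and Txnl1 at −0.089 (adjusted p = 0.782 and 0.837). All 8 tested genes of NADPH supply were above 0 for tangerine against red, with a median of 0.128, beside 6829 of 14068 over all genes. Mthfd1 and Aldh1l1 of folate metabolism had the smallest p there (log2 fold changes 0.14 and 0.18, adjusted p = 0.136 and 0.191) and for tangerine against control (log2 fold changes 0.078 and 0.12, adjusted p = 0.959 and 0.954). Idh1 and the malic enzyme Me1 had the smallest p for red against control (log2 fold changes −0.13 and −0.41, adjusted p = 0.352 and 0.408) and for both tomato diets (log2 fold changes −0.068 and −0.26, adjusted p = 0.835 and 0.833).

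Among 8 regulators of the antioxidant response, the repressor Bach1 stood at 0.38 and Foxo3 at 0.41 for tangerine against red (adjusted p = 0.102 and 0.106). Keap1, which holds the activator NRF2 in check, stood at 0.13 for red and 0.14 for tangerine against control (adjusted p = 0.245 and 0.625) and 0.14 for both tomato diets (adjusted p = 0.545). Ppargc1a, a coactivator of mitochondrial genes, stood at −0.46 for red against control and −0.29 for both tomato diets (adjusted p = 0.218 and 0.738), and Ppara at 0.33 for tangerine against control (adjusted p = 0.890). Of the other family members, Prdx4 and Gpx3 had the smallest p for tangerine against red (log2 fold changes 0.15 and 0.42, adjusted p = 0.322 and 0.349), Prdx2 and Gpx7 for red against control (log2 fold changes −0.054 and 0.24, adjusted p = 0.656 and 0.689), Gpx7 and Prdx4 for tangerine against control (log2 fold changes 0.45 and 0.092, adjusted p = 0.920 and 1), and Gpx7 and Gpx6 for both tomato diets (log2 fold changes 0.34 and 0.18, adjusted p = 0.782 and 0.888). Gpx2, Gpx8, Chac2, Txnip, G6pdx, Pstk and Cyba are listed at 0 in all 36 libraries. Txnip and G6pdx are expressed in most cells, so a listed 0 is not read here as absence of the transcript.

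RefSeq promoters (GRCm38.p6, windows of equal length that lie mostly upstream of the start of a gene) were matched for 8 of the 10 genes, all but Sod3 and Prdx6. These 8 genes had 11 promoters, and Gpx4 alone had more than 1. Some of its windows overlap (chr10:80053315-80053614 and chr10:80053409-80053708), so shares of promoters count that gene and some matches more than once. The shares below are not read as an excess over all promoters. The antioxidant response element, searched as TGACNNNGC on both strands, was found in 2 of the 11, those of Prdx1 and Sod1, beside 12.4% of 32851 promoters. The GC box GGGCGG was found in 10 of the 11 promoters, at least 1 for each of the 8 genes, beside 35.7% of all promoters. CCAAT was found in 6 of the 11, from 4 of the 8 genes (Cat, Gpx4, Sod1 and Sod2), beside 37.4%. Both were searched on both strands. These are matches of letters in a short window, and no measure of binding was made in these livers.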

How the data were processed

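Liver RNA of 36 mice was extracted with Qiagen columns and made into libraries with a directional kit, per the labels. The authors deposited raw counts per Ensembl gene in a single table, with no normalization. The submitters' processing notes name FastQC, Trimmomatic, edgeR and the build GRCm38.p6; the aligner, counter, annotation release, strand setting and handling of shared reads are not given in the sources used here. Columns were matched to samples by the column names in the labels, and no sample column was left unused. Symbols came from GENCODE M21 (GRCm38), which named 53620 of 53715 genes.

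Genes were kept by filterByExpr (minimum count 10, total 15, proportion 0.7). Counts were scaled by TMM and tested in edgeR 4.0.16 (R 4.3.3) with the robust quasi-likelihood test on all 36 libraries, diet as the only term, and Benjamini-Hochberg adjustment with a threshold of 0.05. Nothing in the labels pairs mice across diets. Log2 CPM used a prior count of 2. Correlations used 100000 permutations (scipy 1.17.1). CPM per kilobase used merged exon or principal transcript lengths. Copies were found with blastn 2.17.0. The steps were tested on simulated data. Alternatives were DESeq2 1.42.0, limma 3.58.1, sva 3.50.0 (5 surrogate variables), other scalings, filters, covariates and left-out libraries.

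The 10 genes, the lists and the tests were chosen with earlier results of these data known. The text names all 10 genes; from each list, the genes past the threshold and the 2 with the smallest p in each comparison; and for each of the 10, the 3 most similar genes by rank correlation. A list gene that this rule would name is not reported here.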

Additional observations from a re-analysis of the deposited data

How the results depend on the processing

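No paired analysis was possible because no mouse number occurs in more than 1 diet. Under other settings, 590 values of the 10 genes were computed: 513 kept their direction and side of the threshold, 5 passed it and 72 changed sign, all 72 below the threshold throughout. The settings with the length slope, without control 137, without control 137 with tangerine 225 and 242, and with copies added were chosen after seeing the data, as were those leaving out each library for the counts. The number of the 10 genes called for tangerine against red was 1 with the DESeq2 Wald test, with limma-voom, with only the compared diets and with the length slope, Prdx6 each time, and 0 to 1 when each library was left out. For red against control it was 1 with limma-voom (Sod3). Of the pathway lists, 1 gene was called for red against control, and 2 with the DESeq2 Wald test, 7 with limma-voom, 0 with the clock score and 8 with surrogate variables. For tangerine against control, surrogate variables gave 1 where the count had been 0. For tangerine against red, 4 were called, and 1 without the low-count filter, 10 with limma-voom, 0 with the clock score, 1 with mouse number, 12 with surrogate variables, 7 with the length slope, 1 without red 186 and tangerine 216, and 1 to 4 when single libraries were left out (1 without tangerine 216). The cause was not tested. The share of all genes called is not given for the settings of filter, clock score, mouse number, surrogate variables, or red 186 with tangerine 216. The list counts under those settings are therefore not read as a result about the lists. Of 45 gene pairs, 13 to 16 passed under the settings tried, and the share among pairs of other genes was not computed. Pseudogene copies limit Gpx4 and Prdx1, whose spreads, correlations and most similar genes were taken from their own counts without those of the copies. The diets' clock scores limit the comparison of the tomato diets. The log2 fold changes with a changed sign follow by setting.

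With the clock score, they were Prdx5 0.00069 for red against control, Prdx5 −0.014 for tangerine against red and Prdx1 −0.026 for both tomato diets. With copies added, they were Gpx4 −0.041 for tangerine against control and Gpx4 −0.035 for tangerine against red. With the length slope, they were Sod1 0.037 and Prdx5 0.027 for red against control, Sod1 −0.042 and Prdx5 −0.030 for tangerine against red and Sod1 0.016, Gpx4 0.0017 and Prdx5 0.012 for both tomato diets. With limma-voom, they were Sod1 0.088, Gpx4 0.012 and Prdx5 0.084 for red against control, Sod1 0.044, Sod3 0.12 and Prdx5 0.052 for tangerine against control, Sod1 −0.044 and Prdx5 −0.032 for tangerine against red and Sod1 0.066, Gpx4 0.013, Prdx1 −0.0087 and Prdx5 0.068 for both tomato diets. With mouse number, they were Prdx5 0.012 for tangerine against control. Without the low-count filter, they were Sod1 0.0021 and Prdx5 0.0020 for tangerine against control and Cat 0.0023 for tangerine against red. With surrogate variables, they were Sod1 0.057, Gpx4 0.019 and Prdx5 0.021 for red against control, Sod1 0.032, Sod3 0.027 and Prdx5 0.017 for tangerine against control, Sod1 −0.026, Gpx4 −0.0039 and Prdx5 −0.0040 for tangerine against red and Sod1 0.044, Gpx4 0.018 and Prdx5 0.019 for both tomato diets. Without control 137 and tangerine 225 and 242, they were Sod1 0.059 and Prdx5 0.059 for red against control, Sod1 0.0083, Sod3 0.095, Gpx4 −0.0021 and Prdx5 0.047 for tangerine against control, Sod1 −0.051 and Prdx5 −0.012 for tangerine against red and Sod1 0.034, Prdx1 −0.0036 and Prdx5 0.053 for both tomato diets. Without red 186 and tangerine 216, they were Sod1 0.011 and Prdx5 0.0079 for red against control, Sod1 −0.026 and Prdx5 −0.014 for tangerine against red and Prdx1 −0.0022 and Prdx5 0.00082 for both tomato diets. Without control 137, red 186 or tangerine 216 in turn, the range was Sod1 −0.012 to 0.056, Prdx5 −0.016 to 0.055 for red against control, Sod1 −0.015 to 0.059, Sod3 −0.049 to 0.050, Prdx5 −0.0080 to 0.063 for tangerine against control, Sod1 −0.020 to 0.0033, Prdx5 −0.016 to 0.0097 for tangerine against red and Sod1 −0.013 to 0.058, Gpx4 −0.0039 to 0.018, Prdx1 −0.0014 to 0.0086, Prdx5 −0.011 to 0.059 for both tomato diets.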
